A study of Taeniopygia guttata with 8 samples.

Results

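Chromosome 13 of the zebra finch carried 916 of the 35958 regions at which acetylation of histone H3 at lysine 27 (H3K27ac) was counted by ChIP-seq, the sequencing of DNA bound to immunoprecipitated chromatin, in 2 song nuclei, RA and Area X. Its members are all regions listed under chromosome 13 itself. A further 178 regions on sequence assigned to chromosome 13 without a position are not members. The chromosome was chosen on a measured value, its share of reads, which was higher in Area X than in RA. Everything that compares Area X with RA on this chromosome is therefore a description. Calls of that contrast are counted only to describe where the regions lie, beside the share of all regions called, and no p-value is given for them. Tests are given for singing against silence.

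The libraries came from adult male zebra finches kept singly in sound-attenuating chambers. The birds of the silent groups did not sing during the 1 to 2 hours before the brains were taken, and those of the singing groups, labelled as 2 hours, sang. Each behaviour had 18 birds, and tissue of 6 birds was pooled, which gave 3 pools per behaviour. The counts cover 3 silent and 4 singing libraries of each nucleus, so 7 libraries per nucleus. The behaviour of each column was read from its name, where minus was taken to mean silence and plus to mean song. The sources used here do not state the origin of singing library 4. The labels name laser capture as the tissue source, while the protocol describes nuclei cut from slices by hand. RA and Area X libraries may share birds, and the model treated them as independent. If libraries repeat a pool, p-values measure technical spread in part. Whole nuclei hold many cell types, so fewer cells that carry the mark and less of the mark per cell cannot be told apart. The deposited counts name no genes. The sources used here give no genome build for them. Regions are therefore identified by position, and marker genes of the tissue could not be looked up.

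H3K27ac is placed on nucleosomes beside promoters and enhancers that are in use, and it changes with cell type more at enhancers than at promoters. Dense clusters of such regions, and single regions several kilobases wide, are often found near genes that characterise a cell type. RA, the robust nucleus of the arcopallium, holds projection neurons that drive the vocal motor neurons of the brainstem. Area X is part of the striatum, with mostly inhibitory spiny neurons, and is needed for song learning. Singing induces activity-dependent genes in both nuclei.

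The regions of chromosome 13 ran from position 14883 to 16961616 and covered 1405 kb, or 8.29% of that span. Their median width was 891 bp against 764 bp for all regions, and 70 of them (7.64%) were wider than 4000 bp, against 4.31% of all regions. The density was 54.1 regions per Mb. On the 5 chromosomes of similar size, 10, 11, 12, 14 and 15, it lay between 35.0 and 61.4. Regions wider than 4000 bp made up 4.14% of the regions of chromosome 10, 7.73% of chromosome 11, 5.87% of chromosome 12, 7.68% of chromosome 14 and 5.83% of chromosome 15. In median width and in its share of wide regions, chromosome 13 was closest to chromosome 14 (median 902 bp). The longest stretch with no region ran between 12914532 and 13955525, over 1041 kb.

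Regions were joined into domains where the gap to the next region was at most 10000 bp, since neighbouring regions were often only a few kilobases apart (median gap 4907 bp). This gave 291 domains, of which 111 held a single region and the fullest held 26.

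Reads on chromosome 13 numbered between 6771 and 368014 per library. The lowest value came from RA singing library 4, where a region held a median of 3 reads and 125 regions held none. The next lowest library had 33710 reads. RA silent library 2 and RA singing library 4 stood apart from the other RA libraries. Across the chromosome 13 regions, RA silent library 2 correlated with the Area X libraries at a median Spearman coefficient of 0.917 and with the other RA libraries at 0.834. RA singing library 4 correlated at 0.819 with Area X and at 0.727 with RA. The other RA libraries were closer to RA (0.816 to 0.842) than to Area X (0.617 to 0.756). Both libraries keep the group that their column names give, and values without them are given beside the results.

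The share of all reads that fell on chromosome 13 was 3.08%, 3.31% and 3.09% in the RA silent libraries 1 to 3, and 3.16%, 3.13%, 3.29% and 3.34% in the RA singing libraries 1 to 4. It was 3.52%, 3.41% and 3.48% in the Area X silent libraries, and 3.48%, 3.37%, 3.28% and 3.54% in the Area X singing libraries. Area X libraries were mostly higher, but the ranges overlapped, because Area X singing library 3 lay below 3 RA libraries. RA averaged 3.20% ± 0.11 and Area X averaged 3.44% ± 0.093 (n = 7 libraries each, SD), a difference of 0.241 percentage points and a ratio of 1.08. Without RA silent library 2 and RA singing library 4 the difference was 0.292 points.

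**Figure D1:**
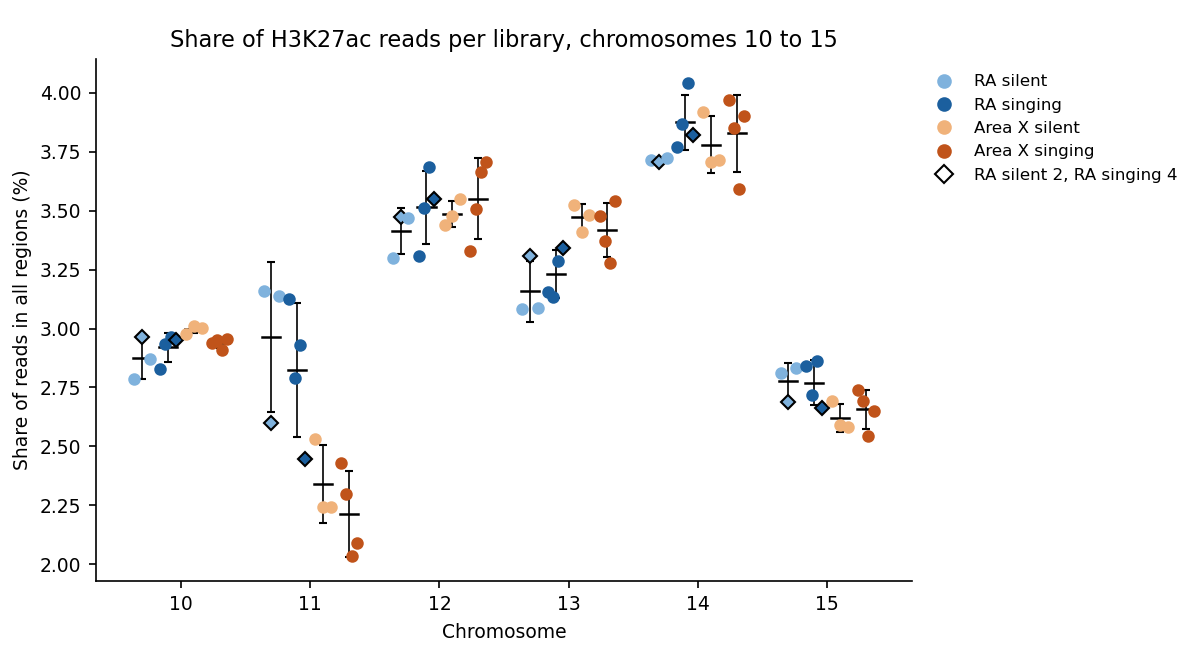
Share of all reads in regions (y axis, percent) for chromosomes 10 to 15 in each of the 14 libraries. Points are libraries, horizontal lines and bars are group means and SD (n = 3 silent and 4 singing per nucleus), and diamonds are RA silent library 2 and RA singing library 4. On chromosome 13 the Area X means (3.47% silent, 3.42% singing) lie above the RA means (3.16% and 3.23%), while on chromosome 11 they lie below.

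The chromosomes of similar size differed from this in size or direction. The Area X minus RA difference was 0.064 points on chromosome 10, 0.053 on chromosome 12 and 0.00088 on chromosome 14. On chromosome 11 it was -0.618 points and on chromosome 15 -0.131. The ratio of Area X to RA was 1.02, 1.02 and 1.00 on the first 3 of these, and 0.786 and 0.953 on the last 2. Chromosome 13 thus had the highest ratio of the 6, as its selection implies.

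Levels of single regions and domains are given as counts per 1e6 reads (CPM) after TMM scaling, which sets libraries to a common level across regions. A region or domain was called when the edgeR quasi-likelihood test, adjusted by the Benjamini-Hochberg method over all regions or domains of the genome, passed 0.05. On chromosome 13, 296 of 915 tested regions (32.3%) were called higher in Area X, where 28.5% of all regions were, and 221 (24.2%) were called higher in RA, where 25.3% of all regions were. Because the chromosome was chosen on this contrast, these counts are given without a reading. Without the 2 libraries that stood apart, 312 and 256 of 916 regions were called, where 10995 and 10459 of all 35958 regions were. Of the original calls on chromosome 13, 292 and 218 were called again. The median difference between nuclei among the called regions was 2.35-fold toward Area X and 2.25-fold toward RA, and it was more than 2-fold in 210 and 154 of them. Regions whose 7 Area X values all lay above their 7 RA values numbered 62, against 4.38% of all regions, and 35 had the reverse, against 3.67% of all regions.

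These counts depend on the scaling. With scaling to the total count instead of TMM, the median log2 difference of all regions moved from -0.04 to -0.35. Chromosome 13 then had 196 of 915 regions called toward Area X and 298 toward RA, where 7045 and 12301 of all 35954 regions were.

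Along the chromosome, most of the Area X excess lay in windows 1 and 4 to 6, and most of the RA excess in the last 2 windows. Of 17 windows of 1 Mb, the first 7 held 567 regions and took 68.4% ± 3.1 of the chromosome's reads in RA (65.0% to 73.6%) and 76.03% ± 1.2 in Area X (74.7% to 77.97%), a contribution of 0.426 points. The part of window 1 was 15.3% ± 1.1 for RA and 17.5% ± 1.1 for Area X (n = 7 libraries each, SD). Window 4 took 14.2% ± 1.3 in RA and 18.2% ± 0.66 in Area X, and gave 0.172 points toward Area X. Window 1 gave 0.113 points, and windows 5 and 6 gave 0.052 and 0.062. Among these 7, window 2 went the other way, with -0.013 points and a median log2 difference of -0.65. Of its 90 regions, 33 were called toward RA and 15 toward Area X, where 25.3% and 28.5% of all regions were. Windows 1 and 4 gave the largest contributions toward Area X, so their sum is a description of picked windows. Together they held 217 regions. They took 29.4% ± 2.4 of the reads of RA (26.4% to 33.0%) and 35.7% ± 0.72 in Area X (34.7% to 37.0%). The nuclei did not overlap there. Without the 2 libraries that stood apart, the RA mean was 28.2%.

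The last 2 windows, 16 and 17, went the other way. They held 98 regions and gave the largest contributions toward RA, so they too are picked windows. Their part of the chromosome's reads was 15.8%, 10.3% and 15.9% in RA silent libraries 1 to 3 and 15.7%, 13.98%, 14.4% and 9.48% in RA singing libraries 1 to 4. In Area X it was 8.90%, 6.91% and 6.81% in the silent libraries and 8.69%, 8.28%, 6.48% and 6.70% in the singing libraries. All 7 RA libraries lay above all 7 Area X libraries, and the 2 RA libraries that stood apart were the lowest of RA. The means were 13.6% ± 2.7 in RA and 7.54% ± 1.0 in Area X (n = 7 libraries each, SD), and the RA mean was 15.2% without those 2. The windows contributed -0.175 points to the Area X minus RA difference.

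The middle of the chromosome was sparse and close to even. Windows 8 to 15 held 251 regions, 27.4% of all, but 18.0% ± 0.85 of the reads of RA and 16.4% ± 0.83 in Area X, and their net contribution was -0.0097 points. They were not uniform. Window 12 gave -0.042 points, with 6 of its 52 regions called higher in Area X and 24 in RA. Window 15 gave 0.027 points, with 19 and 2 of its 36 regions. Window 7 had like sums, with 11.9% of the reads of RA and 11.8% in Area X. Of its 78 regions, 28 were called toward Area X and 17 toward RA, where 28.5% and 25.3% of all regions were. It contributed 0.0269 points.

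**Figure D2:**
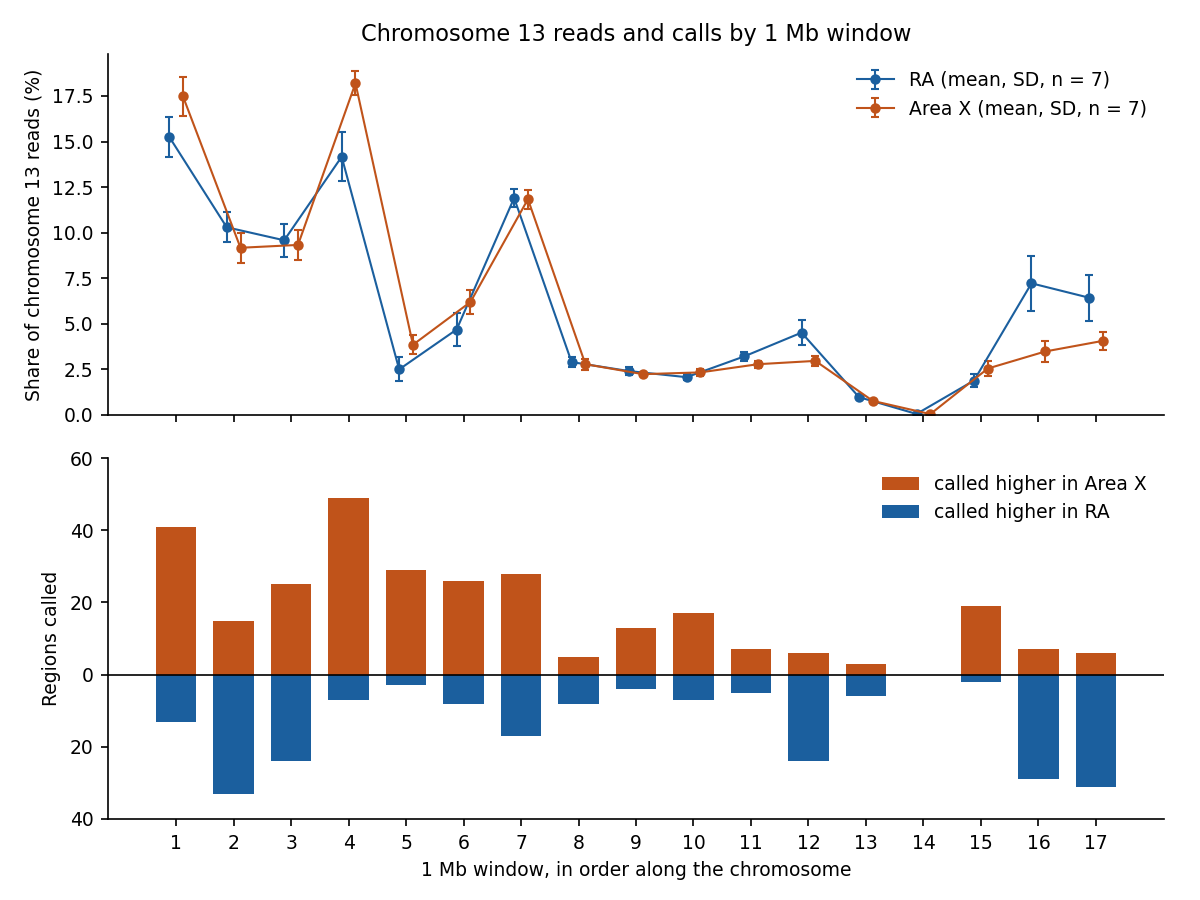
Top, share of chromosome 13 reads (y axis, percent) in each 1 Mb window in order along the chromosome, as mean and SD over 7 libraries per nucleus. Bottom, number of regions called higher in Area X (up) or in RA (down) in each window, with RA calls outnumbering Area X calls in windows 2 (33), 8 (8), 12 (24), 13 (6), 16 (29) and 17 (31). Over the genome, 28.5% of regions were called higher in Area X and 25.3% in RA.

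Windows 1 and 4 took 28.9% ± 2.9 in silent RA (n = 3) and 29.8% ± 2.2 in singing RA (n = 4), and 35.3% ± 0.52 in silent and 36.0% ± 0.77 in singing Area X. Windows 16 and 17 took 14% ± 3.2 in silent and 13.4% ± 2.7 in singing RA, and 7.54% ± 1.2 in silent and 7.54% ± 1.1 in singing Area X. These differences between behaviours were within the SD of the libraries, except that the difference in windows 1 and 4 of Area X was larger than the SD of the silent group.

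Window 7 differed between the behaviours by more than the SD of either group in both nuclei, and windows 8 to 15 together did so in Area X. Among single windows, window 11 also did so in RA (3.38% in silence, 3.08% in singing). In Area X so did window 8 (2.96% and 2.65%) and window 15 (2.80% and 2.35%). These differences were not tested. Window 7 took 12.05%, 12.4% and 12.3% in silent RA and 12.2%, 11.6%, 11.8% and 10.9% in singing RA. In Area X it took 12.3%, 12.3% and 12.2% in silence and 12.02%, 11.2%, 11.1% and 11.6% in singing. Every silent Area X library was above every singing one, and in RA the behaviours overlapped. Windows 8 to 15 together took 17.05% ± 0.80 in silent and 15.97% ± 0.54 in singing Area X, and 18.5% ± 0.56 and 17.6% ± 0.91 in silent and singing RA.

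The widest regions leaned toward Area X. The 70 regions over 4000 bp held 35.9% ± 3.5 of the chromosome's reads in RA (32.7% to 41.6%) and 42.6% ± 2.3 in Area X (39.8% to 45.9%). The RA mean was 34.0% without the 2 libraries. Of these wide regions, 50 were called toward Area X and 12 toward RA, where 62.2% and 20.4% of all regions over 4000 bp were. Regions of up to 500 bp numbered 238, of which 48 were called toward Area X and 49 toward RA, where 17.5% and 25.4% of all such regions were. The classes of 501 to 1000 bp (260 regions) and 1001 to 2000 bp (218 regions) had 69 and 68 calls toward Area X and 65 and 62 toward RA. The class of 2001 to 4000 bp, with 130 regions, had 61 toward Area X and 33 toward RA. For these classes the share over all chromosomes was not computed. The same shift toward Area X in wide regions was seen over all chromosomes, where regions over 4000 bp took 24.0% ± 2.8 of all reads in RA and 29.0% ± 2.4 in Area X, and on each of the 5 similar chromosomes.

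The reads were concentrated. The 10 domains with the largest shares held 145 regions (15.8%) and 29.1% of the covered bases, but 35.4% of the chromosome's reads. Of the 291 domains of chromosome 13, 21 held 50% of its reads. The corresponding number was 37 of 414 domains on chromosome 10, 20 of 341 on chromosome 11 and 32 of 435 on chromosome 12. It was 25 of 365 on chromosome 14 and 25 of 309 on chromosome 15. The 10 domains took 33.1% ± 1.8 of the reads of RA (31.0% to 35.7%) and 37.6% ± 0.81 in Area X (36.7% to 39.3%), with no overlap between the nuclei. Without the 2 libraries that stood apart, the RA mean was 32.2%. The 10 strongest domains of each similar chromosome also took a larger part in Area X than in RA. The RA and Area X means were 23.0% and 27.7% on chromosome 10, 35.4% and 39.7% on chromosome 11, and 26.5% and 30.4% on chromosome 12. They were 30.9% and 36.4% on chromosome 14, and 26.3% and 30.4% on chromosome 15.

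Of the 291 domains, 126 raised the Area X share, by 0.789 points in sum, and 165 lowered it, by -0.548 points in sum. The 5 domains with the largest contribution in each direction gave 0.266 of the gain and -0.209 of the loss. Removing the 5 domains toward Area X alone left 2.80% in RA and 2.79% in Area X, a difference of -0.018 points. Removing domains picked for one direction lowers the difference by construction, and it did so on the other 5 chromosomes too. Removing 5 domains in each direction left 0.187 points on chromosome 13, against 0.011 on chromosome 10, -0.519 on chromosome 11, -0.050 on chromosome 12, -0.104 on chromosome 14 and -0.178 on chromosome 15. Without the 10 strongest domains the difference was 0.012 points, and among regions of up to 4000 bp it was 0.087 points. Of the 10 strongest, only chr13:15868499-15942162 contributed toward RA (-0.083 points), and all the others contributed toward Area X. Leaving them out thus removed mostly domains on the Area X side. The differences without the 10 strongest domains and in regions of up to 4000 bp were not computed on the other 5 chromosomes. There the 10 strongest domains also took a larger part in Area X.

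**Figure D3:**
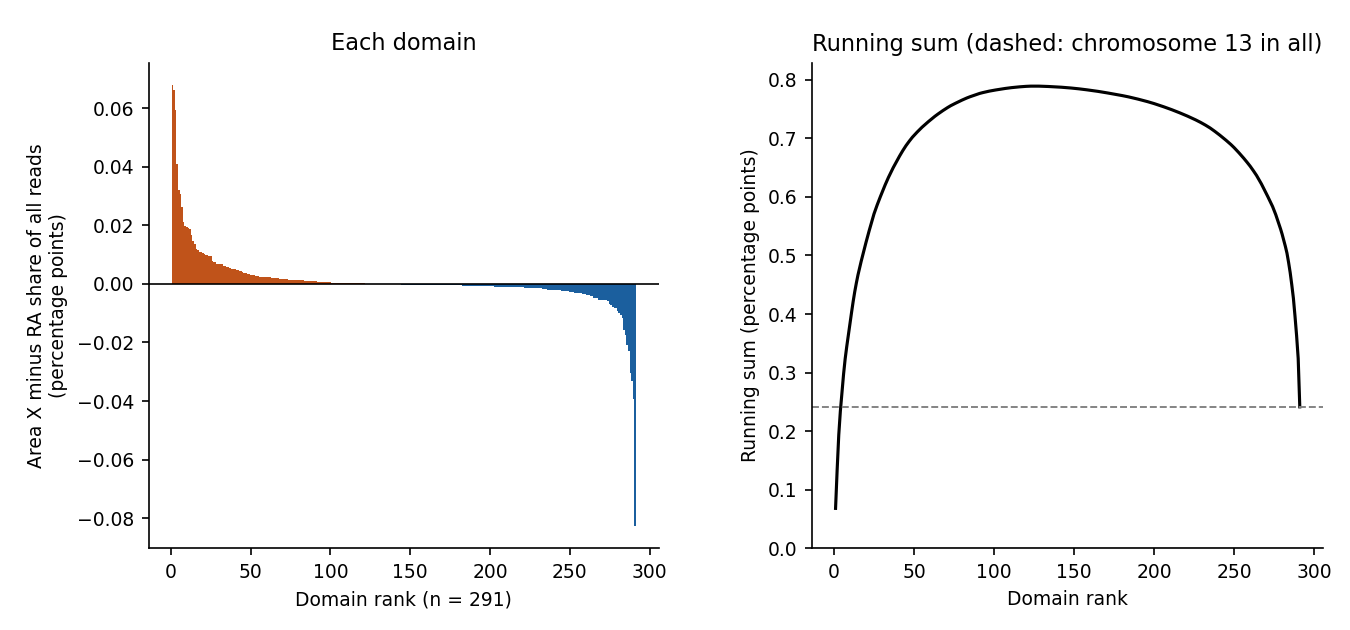
Left, contribution of each of the 291 domains to the Area X minus RA difference in the share of all reads (y axis, percentage points), ranked from highest to lowest. Right, the running sum over the same ranking, which climbs over the 126 domains toward Area X and falls back over the 165 toward RA to the dashed line at 0.241 points.

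The domain with the largest contribution toward Area X, called X1 in the plot of domain values, was chr13:3267008-3325044. It held 12 regions in 58037 bp. Its level was 328, 895 and 436 CPM in the RA silent libraries 1 to 3, and 375, 638, 594 and 856 CPM in the RA singing libraries. In Area X it was 1035, 1496 and 1800 CPM in the silent libraries and 1039, 1258, 2176 and 1891 CPM in the singing libraries. All Area X libraries lay above all RA libraries, and the 2 RA libraries that stood apart were the highest of RA. The means were 589 ± 225 CPM in RA and 1528 ± 444 CPM in Area X (n = 7 libraries each, SD), a log2 difference of 1.3 (SE 0.27), and the RA mean was 474 CPM without those 2. Most of the level came from 2 regions: chr13:3302639-3314053, 11415 bp wide, with 260 ± 108 CPM in RA and 679 ± 181 in Area X, and chr13:3280674-3293035, 12362 bp wide, with 161 ± 76.5 and 507 ± 176.

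X2, chr13:414500-494210, held 14 regions. It stood at 470, 1025 and 419 CPM in silent RA and 471, 637, 614 and 952 CPM in singing RA, and at 1231, 1707 and 1684 CPM in silent and 1511, 1387, 1736 and 1712 CPM in singing Area X. The nuclei did not overlap, and the log2 difference was 1.19 (SE 0.23). It holds the region with the highest mean level on the chromosome, chr13:432336-443071, which is 10736 bp wide. That region stood at 164, 517 and 131 CPM in silent RA and 158, 313, 216 and 530 CPM in singing RA. In Area X it stood at 612, 920 and 926 CPM in the silent and 824, 760, 961 and 877 CPM in the singing libraries, so every Area X library was above every RA library. The 8 largest differences toward Area X were taken among called regions at or above the median level of all regions. Of these 8 regions, 2 lay beside chr13:432336-443071. The first, chr13:450613-451558, had 15.2 ± 6.6 CPM in RA and 63.3 ± 11.8 in Area X (4.17-fold). The other, chr13:448023-449739, had 25.6 ± 19.95 and 86.5 ± 19.4 (3.37-fold).

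The other 3 were X3, chr13:505608-632658, X4, chr13:3146890-3210491, and X5, chr13:3717116-3778727. X3 was the second strongest domain of the chromosome, with 25 regions. Its level was 1309 ± 267 CPM in RA (1017 to 1699) and 2308 ± 271 in Area X (1844 to 2703), and 16 regions were called higher in Area X and 0 in RA. X4 had 261 ± 148 CPM in RA (103 to 443) and 811 ± 343 in Area X (400 to 1325), and its nuclei overlapped, because RA silent library 2 and RA singing library 4 lay above Area X singing library 1. Of its 11 regions 10 were called higher in Area X. X5 had 849 ± 142 CPM in RA (711 to 1098) and 1421 ± 117 in Area X (1239 to 1568), with no overlap. Its widest region, chr13:3735067-3748477 (13411 bp), was closer to even, at 369 ± 46.4 and 465 ± 38.2 CPM.

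Toward RA, the largest contribution came from R1, chr13:15868499-15942162, with 12 regions in 73664 bp, all of which were called higher in RA. Its level was 1321, 714 and 1371 CPM in silent RA and 1258, 1126, 1234 and 743 CPM in singing RA. In Area X it was 562, 391 and 398 CPM in the silent and 554, 507, 389 and 407 CPM in the singing libraries. All RA libraries lay above all Area X libraries, and the 2 that stood apart were again the ones nearest to Area X. The means were 1110 ± 271 CPM in RA and 458 ± 79.6 in Area X (n = 7 libraries each, SD), a log2 difference of -1.33 (SE 0.19), and the RA mean was 1262 CPM without those 2. R1 took 3.92% of the chromosome's reads in RA and 1.22% in Area X. Among called regions at or above the median level of all regions, the 2 with the largest difference toward RA lay in R1. They were chr13:15883345-15886442, at 63.7 ± 23.1 and 20.6 ± 7.57 CPM, and chr13:15878773-15882331, at 63.4 ± 26.2 and 20.6 ± 7.11.

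R1 lay near other regions that were higher in RA, but these did not form an unbroken block. R3, chr13:15986351-16045409, lay further on, with 13 of 14 regions called higher in RA, at 468 ± 130 CPM in RA (269 to 674) and 208 ± 28.8 in Area X (173 to 259). The 8 largest differences toward RA were likewise taken among called regions at or above the median level. Of these 8 regions, 3 lay in R1 and 3 in the 100 kb before it. The domain chr13:15741477-15777131, also before R1, went the other way, at 204 ± 73.0 CPM in RA and 447 ± 77.7 in Area X. In it 4 regions were called higher in Area X and 0 in RA. So did chr13:16226894-16244474, after R3, at 207 ± 64.3 and 426 ± 72.7 CPM, with 3 of 3 regions called higher in Area X. R2, chr13:16899667-16961616, was the last domain of the chromosome and had 732 ± 197 CPM in RA (422 to 1048) and 471 ± 50.3 in Area X (378 to 512), with overlap. R4, chr13:6912456-6930484, held the widest region of the chromosome, chr13:6916593-6930484 (13892 bp), which had 389 ± 150 CPM in RA and 172 ± 26.0 in Area X. As a domain, R4 had 226 to 664 CPM in RA and 159 to 234 in Area X, with overlap. R5, chr13:783381-884601, had 26 regions and differed least. Its level was 581 ± 105 CPM in RA (435 to 699) and 470 ± 40.9 in Area X (425 to 536), with overlap. R5 was not called as a domain, and 7 of its regions were called higher in RA and 2 in Area X.

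**Figure D4:**
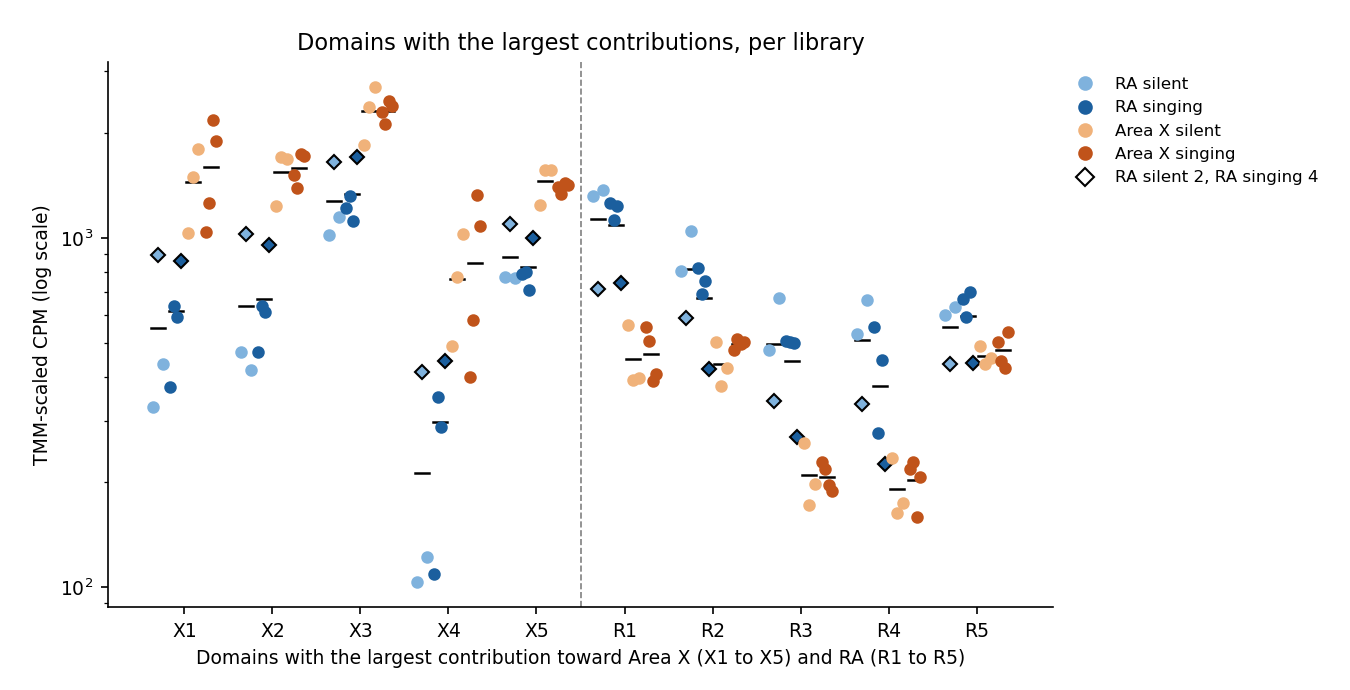
Level of the 5 domains with the largest contributions toward Area X (X1 to X5) and toward RA (R1 to R5), in TMM-scaled CPM on a log scale, one point per library and a line at each group mean (n = 3 silent, 4 singing per nucleus). Diamonds are RA silent library 2 and RA singing library 4, which lie between the other RA libraries and Area X in X1, X2, X3, X5, R1 and R3.

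The strongest domain of the chromosome was not among these. It was chr13:1509720-1603896, with 14 regions and 5.48% of the reads. Its level was 1526, 1609 and 1495 CPM in silent RA, and 1432, 1573, 1554 and 1608 CPM in singing RA. In Area X it was 1905, 2033 and 2299 CPM in the silent and 2208, 1998, 2217 and 2345 CPM in the singing libraries. Its share of the chromosome's reads was close in the 2 nuclei, 5.40% in RA and 5.57% in Area X, and the domain was called under TMM (log2 difference 0.41, SE 0.12) and not under total-count scaling (0.15). Inside it the regions split: 8 were called toward Area X and 4 toward RA. Its strongest region, chr13:1554348-1565689, had 351 ± 80.5 CPM in RA and 661 ± 82.3 in Area X, while chr13:1584916-1596147 had 324 ± 51.8 and 232 ± 31.9.

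Of the 147 domains with more than 1 region and at least 1 call, 28 (19.0%) held calls in both directions. Over all chromosomes this was 587 of 5646 such domains (10.4%). The sizes of the domains were not matched between these, and the difference was not tested. Neighbouring regions differed alike: across neighbours at most 1 kb apart, the log2 difference between nuclei correlated at r = 0.78 (n = 114 pairs), at 1 to 10 kb at 0.71 (n = 511), at 10 to 100 kb at 0.42 (n = 261), and further apart at 0.06 (n = 27). These are descriptions across regions that share their libraries. Where 5 or more regions in a row were called the same way, 6 such runs pointed toward Area X and 5 toward RA. The longest were the 12 regions of R1 and 12 regions in R3. Runs were not counted on other chromosomes, so whether these numbers are usual was not tested. A run of 8 toward Area X lay in the sparse middle at chr13:9073980-9109188, with 220 ± 77.1 CPM in RA and 504 ± 157 in Area X, and one of 8 toward RA at chr13:2033075-2074717, with 241 ± 61.0 and 104 ± 31.7.

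Singing against silence was tested as the comparison that did not choose the chromosome. No region of chromosome 13 was called in RA, in Area X, in both nuclei together or for the difference between nuclei, and no region of the genome was either (0% of 35954 regions; edgeR quasi-likelihood test, adjusted over all regions). At an unadjusted p under 0.05 there were 17 of 915 regions in RA (11 higher and 6 lower in singing), 9 in Area X (7 and 2), 24 in both nuclei (12 and 12) and 4 for the difference between nuclei. These are 1.86%, 0.984%, 2.62% and 0.437% of the tested regions, against 1.96%, 1.07%, 2.6% and 0.587% of all regions. All lay below the rate that this threshold sets where no level differs. Fitted with the compared groups only, the counts were 1 of 900 regions in RA and 27 of 904 in Area X. Over the genome they were 198 of 35149 and 894 of 35356. With all 4 groups fitted together, the counts also moved with single libraries. Without RA silent library 2 they were 92 in RA and 69 in both nuclei, against 3314 and 2732 of 35958 regions of the genome. Without RA singing library 1 they were 53 and 55, against 2832 and 2326 of 35945. Without RA silent library 3 the RA count was 9, against 649 of 35953. The Area X count was 32 without Area X silent library 1, 17 without Area X singing library 1, 15 without RA silent library 2, 5 without Area X singing library 2, and 4 without Area X silent library 2 or 3. Over the genome the Area X counts were 1295, 671, 528, 249, and 142 or 133 in the same order, against 384 with all libraries. The count over both nuclei was 46, 13 and 14 without Area X silent library 1, 2 and 3 in turn, and 15 without Area X singing library 2. Over the genome it moved the same way, against 936 with all libraries. It was 1543 without Area X silent library 1, 532 without Area X silent library 2 and 771 without Area X singing library 2. Without Area X silent library 3 the genome count was lower than with all libraries too. No region was called in any of these. Without the 2 RA libraries that stood apart, 0 regions were called; the regions at an unadjusted p under 0.05 then numbered 56 of 916 for RA and 14 for Area X, against 2247 and 556 of 35958 regions of the genome. DESeq2 called 0 regions of chromosome 13 and 1 region of the genome, which was higher in singing in Area X. At an unadjusted p under 0.05 it had 26, 14, 34 and 8, against 1055, 604, 1418 and 311 of all 35954 regions. Of the 290 tested domains 0 were called (0% of 17279 domains), with 5, 1, 4 and 1 at an unadjusted p under 0.05. Over the genome the same contrasts had 300, 173, 449 and 82 such domains. Domain counts moved with single libraries too. Leaving out RA silent library 2 raised them to 33 of 291 in RA and 30 in both nuclei. The genome then had 1596 and 1347 of 17283. Leaving out RA silent library 1 or 3 lowered the RA count to 1, beside 219 of 17281 or 263 of 17278. No domain was called in these fits. With 1 library left out, the lowest edgeR adjusted p of a region was 0.337, in RA without RA silent library 2. For a domain it was 0.335, over both nuclei without RA singing library 1. With all libraries, the lowest DESeq2 adjusted p on chromosome 13 was 0.184 for regions and 0.144 for domains, each over both nuclei. The median log2 difference of the chromosome 13 regions was -0.02 for RA and 0.03 for Area X. A missing call does not show that the levels were equal: the 95% interval of a region extended by a median of 0.90 log2 units either way in RA, 0.85 in Area X and 0.62 in both nuclei.

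The share of reads on the chromosome moved little with behaviour. In RA it was 3.16% ± 0.13 in silence (n = 3) and 3.23% ± 0.10 in singing (n = 4), and in Area X it was 3.47% ± 0.056 and 3.42% ± 0.12. The singing minus silent differences were 0.072 and -0.055 points, in opposite directions and smaller than the SD of either group compared.

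The lowest p-value of a behaviour contrast in Area X and in both nuclei was at one place. At chr13:1122095-1123314, 1220 bp wide, the level was 11.1, 9.52 and 12.8 CPM in silent Area X and 13.3, 28.1, 61.5 and 39.8 CPM in singing Area X. In RA it was 5.06, 5.74 and 8.93 CPM in silence and 7.05, 20.04, 11.6 and 13 CPM in singing. Every singing library of Area X lay above every silent one, though library 1 by little, and in RA the groups overlapped. The log2 difference of singing against silence was 1.67 in Area X (SE 0.46, edgeR adjusted p = 1.00) and 1.28 over both nuclei (SE 0.33, edgeR adjusted p = 1.00).

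The next region, chr13:1126701-1127355, had 9.11, 6.70 and 8.82 CPM in silent and 8.06, 19.1, 33.7 and 22.4 CPM in singing Area X. Singing libraries 2 to 4 were above the silent ones, and library 1 was among them. The 2 regions form one domain, whose log2 difference over both nuclei was 1.26 (SE 0.30, edgeR adjusted p = 1.00). Without the 2 RA libraries that stood apart it was 1.27, with an adjusted p of 0.799.

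In RA, the lowest p-value came from a weak region, chr13:14686128-14686371, at 0.633, 4.64 and 1.71 CPM in silence and 0.176, 0, 0.284 and 0 CPM in singing (edgeR adjusted p = 1.00). Its silent values rest on few reads and its highest is RA silent library 2. A stronger region, chr13:10010258-10014336, was lower in singing over both nuclei, at 192, 304 and 288 CPM in silent RA and 179, 165, 190 and 161 CPM in singing RA, and at 199, 312 and 306 CPM in silent and 175, 204, 209 and 236 CPM in singing Area X (log2 difference -0.50, SE 0.17, edgeR adjusted p = 1.00). Silent library 1 was inside or near the singing range in both nuclei. The smallest p-value for a difference between the nuclei in the effect of singing was at chr13:16951856-16953699, in R2 (log2 difference of effects 0.97, SE 0.41, edgeR adjusted p = 1.00).

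**Figure D5:**
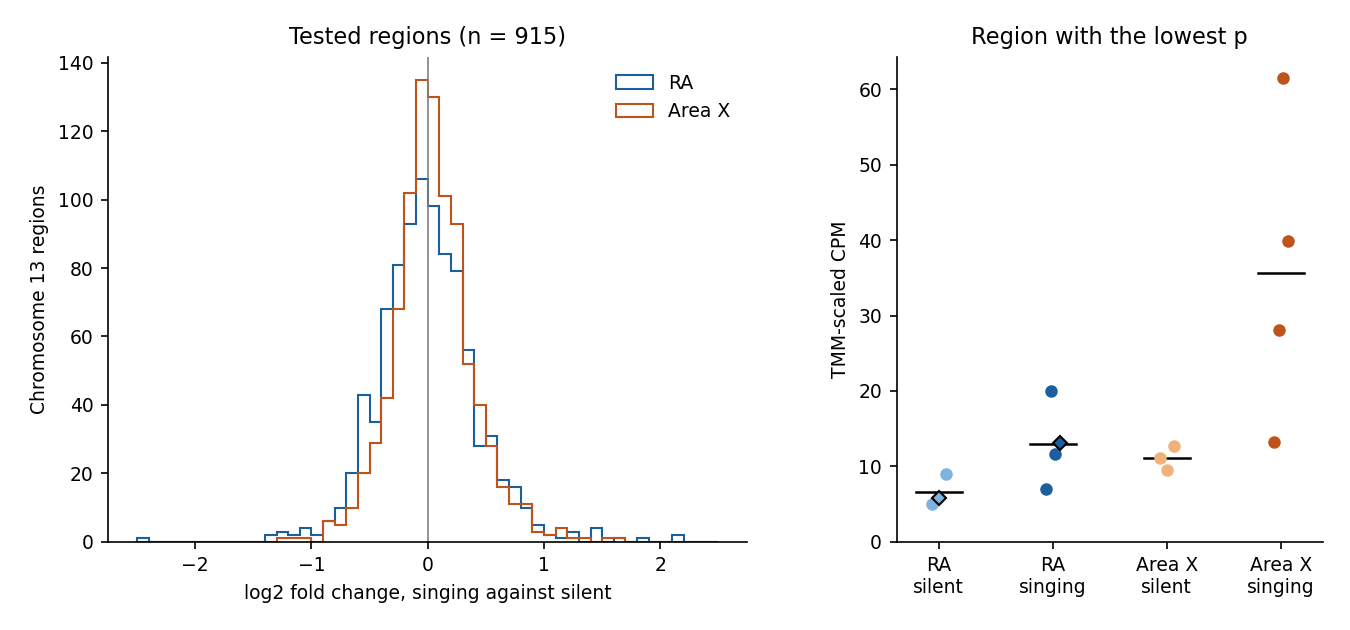
Left, histogram of the log2 difference of singing against silence for the 915 tested regions of chromosome 13, in RA and in Area X, centred at medians of -0.02 and 0.03. Right, TMM-scaled CPM per library at chr13:1122095-1123314, the region with the lowest p over both nuclei, with lines at group means and diamonds for RA silent library 2 and RA singing library 4.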

How the data were processed

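H3K27ac libraries of RA and Area X were analysed from raw counts per region that the authors deposited. The submitters' processing notes name HTSeq 0.6.1, MACS2 2.1, SAMtools 1.1 and bedtools, without roles. The sources used here give no aligner, build or rule for calling regions. The columns do not name the assay and were taken as H3K27ac. Starts were printed counted from 1. Whole-cell extracts were not analysed here. Counts were tested in R 4.3.3 with edgeR 4.0.16 (filterByExpr, TMM, robust quasi-likelihood, one mean per group over 14 libraries) and adjusted by Benjamini-Hochberg over all 35954 tested regions, or 17279 domains. The region test was tested on simulated data. DESeq2 1.42.0 was an alternative. Shares are of reads in regions. Reads in regions numbered 0.203 to 10.6 M per library (M, 1e6 reads). Each numbered library was treated as its own pool.

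Named regions are the 10 with the highest mean CPM, the 5 widest, the 8 largest differences in each direction among called regions at or above the median level, and the 5 smallest p per behaviour contrast. Named domains are the 10 with the largest share, 5 contributions in each direction and 3 smallest p per contrast. Others are named as examples. The members and lists were chosen with earlier results of these data known.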

Additional observations from a re-analysis of the deposited data

Results flagged for a closer look

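Groups of 4 singing libraries were checked at named regions and domains and for the share of reads on chromosome 13. Of these 128 groups, 6 had 1 library far from the other 3, where chance flags about 1 in 20 groups (6.4 here). In each case the gap to the nearest library, divided by the range of the group, was above Dixon's critical value of 0.829. RA singing library 4, the shallowest, was the library in 5 of them. At chr13:4724827-4727345 it had 69.5 CPM against 11.6 to 20.7 in the others (ratio 0.843). At chr13:5032551-5033322 it had 21.7 CPM against 4.17 to 5.29 (0.936), and at chr13:10361347-10361651 it had 8.69 against 2.82 to 3.34 (0.912). It was the lowest at chr13:16949110-16949979, with 8.69 CPM against 17.6 to 19.2 (0.851), and in the domain chr13:15986351-16045409, with 269 CPM against 501 to 507 (0.973). A level of 8.69 CPM in this library stands for few reads. Area X singing library 3 was the lowest at chr13:6885404-6885618, with 0.544 CPM against 2.09 to 2.24 (0.912).

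The 178 regions on sequence assigned to chromosome 13 without a position, which enter no comparison above, took a mean of 0.572% of all reads (0.523% to 0.620% per library).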

How the results depend on the processing

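The singing contrasts had 0 calls on chromosome 13 under every alternative run, with the 2 RA libraries left out or not. Leaving out 1 library at a time gave 229 to 308 regions called toward Area X, where 7461 to 10956 of all regions were. Toward RA it gave 165 to 245, where 6444 to 9827 of all regions were. Under total-count scaling 196 were called higher in Area X and 298 in RA, where 7045 and 12301 of all 35954 regions were. With that scaling chr13:2674503-2685979 changed its log2 difference from 0.257 to -0.0733. Over domains, 107 were called toward Area X (25.9% of all domains were) and 71 toward RA (26.2%). Under total-count scaling these were 78 and 87, where 3299 and 5889 of all 17279 domains were. With joining gaps of 25000 bp they were 50 and 38 of 135 domains, where 2732 and 2784 of all 10546 domains were. With 5000 bp they were 153 and 117 of 447, where 5800 and 5805 of all 22206 were. The number of domains changes by construction. The share of the 10 strongest domains was 24.0% with gaps of 5000 bp and 61.3% with 25000 bp. In regions up to 4000 bp the Area X minus RA difference in the share of reads fell to 0.0869 points. It fell to 0.0119 without the 10 strongest domains, of which all but chr13:15868499-15942162 contributed toward Area X. Neither value was computed on the other chromosomes. With the library number as a replicate block, 314 regions were called toward Area X and 233 toward RA, where 11347 and 9513 of all 35954 regions were. With singing 0 were called. At an unadjusted p under 0.05 there were 22 regions for RA, 29 for Area X and 43 for both nuclei, against 17, 9 and 24 without the block. Over all regions these counts were 1182, 799 and 1289 with the block and 706, 384 and 936 without it. Libraries numbered 1 correlated in their deviations at 0.51 to 0.72, but over all same-numbered pairs the lowest value was -0.31. That pair was Area X singing library 2 with RA silent library 2, which stood apart. RA silent library 3 and Area X silent library 3 correlated at -0.19. The number was therefore not taken to pair samples. Whether libraries numbered 1 share a difference of their own was not tested. Library depth limits RA singing library 4 most.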
